A study of Mus musculus with 15 samples.

Results

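The genes described here encode the ligands and receptors of axon guidance, measured by RNA sequencing in sorted mouse pancreatic alpha, beta and delta cells. Every gene was taken whose symbol belongs to the ephrins and their Eph receptors, the semaphorins with the plexins and neuropilins, the Slits and Robo receptors, or the netrins with Unc5 and Dcc. This rule reads gene names and no measured value, although the gene group itself was picked with earlier results of these data known. It gave 70 of the 38283 genes in the table, which carry 69 symbols because Efna5 has 2 identifiers. Of these, 36 were ligands and 34 receptors.

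Alpha cells (n = 5) and beta cells (n = 4) were sorted from islets of Glu-Venus mice, in which the proglucagon promoter drives the Venus fluorophore. The beta cells were the Venus-negative cells chosen by their light scatter and autofluorescence, and whether same-numbered alpha and beta samples came from 1 sort is not given in the sources used here. Delta cells (n = 6) were sorted from Sst-CreXROSA26EYFP/EYFP mice, in which Cre under the somatostatin promoter switches on EYFP. All mice were C57BL/6, no drug or diet was applied, and ages were not given in the sources used here. Each sample was a pool of islets from several mice, which makes the spread below one between pools. For delta cells, cell type and mouse line cannot be told apart. Values are FPKM (fragments scaled to the length of the transcript and to the mapped fragments of the sample), which allow levels of different genes to be compared per length.

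Axon guidance molecules steer growing nerve fibres by attraction and repulsion. Ephrins are membrane-bound and signal through Eph receptor tyrosine kinases in contacting cells, and the ligand-bearing cell can itself receive a signal. Semaphorins act on plexins, the secreted class 3 forms mostly through a neuropilin co-receptor. Slits are secreted ligands of Robo receptors, and netrins bind Dcc and the Unc5 receptors. In the islet the ephrins have been studied as contact signals between beta cells, and Robo receptors for the arrangement of the endocrine cell types.

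Of the 70 genes, 5 were listed at 0 in every sample (Efna3, Efna4, Ntn5, Epha6 and Ephb4) and 32 had values above 0 but no cell type mean above 1 FPKM. The other 33 (20 ligands and 13 receptors) exceeded 1 FPKM in at least 1 cell type and were tested. Delta cells had 30 members above that level, alpha cells 24 and beta cells 13. Above 10 FPKM there were 7 in delta, 2 in beta and 1 in alpha cells. The mean was highest in delta cells for 26 of the 33, in alpha cells for 4 and in beta cells for 3. The whole table leaned the same way. The median number of genes above 0 per sample was 18198.5 in delta, 15627 in alpha and 16679.5 in beta cells. Of all genes tested, 58% had a positive log2 difference for delta against alpha and 62.9% for delta against beta cells. The counts by level were not taken for all genes. A gene could enter the test through 1 high cell type alone, which was delta for 8 genes (Slit2, Sema3a, Sema4c, Sema4g, Sema6a, Sema6b, Unc5b and Nrp2), alpha for 2 and beta for 1.

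**Figure D1:**
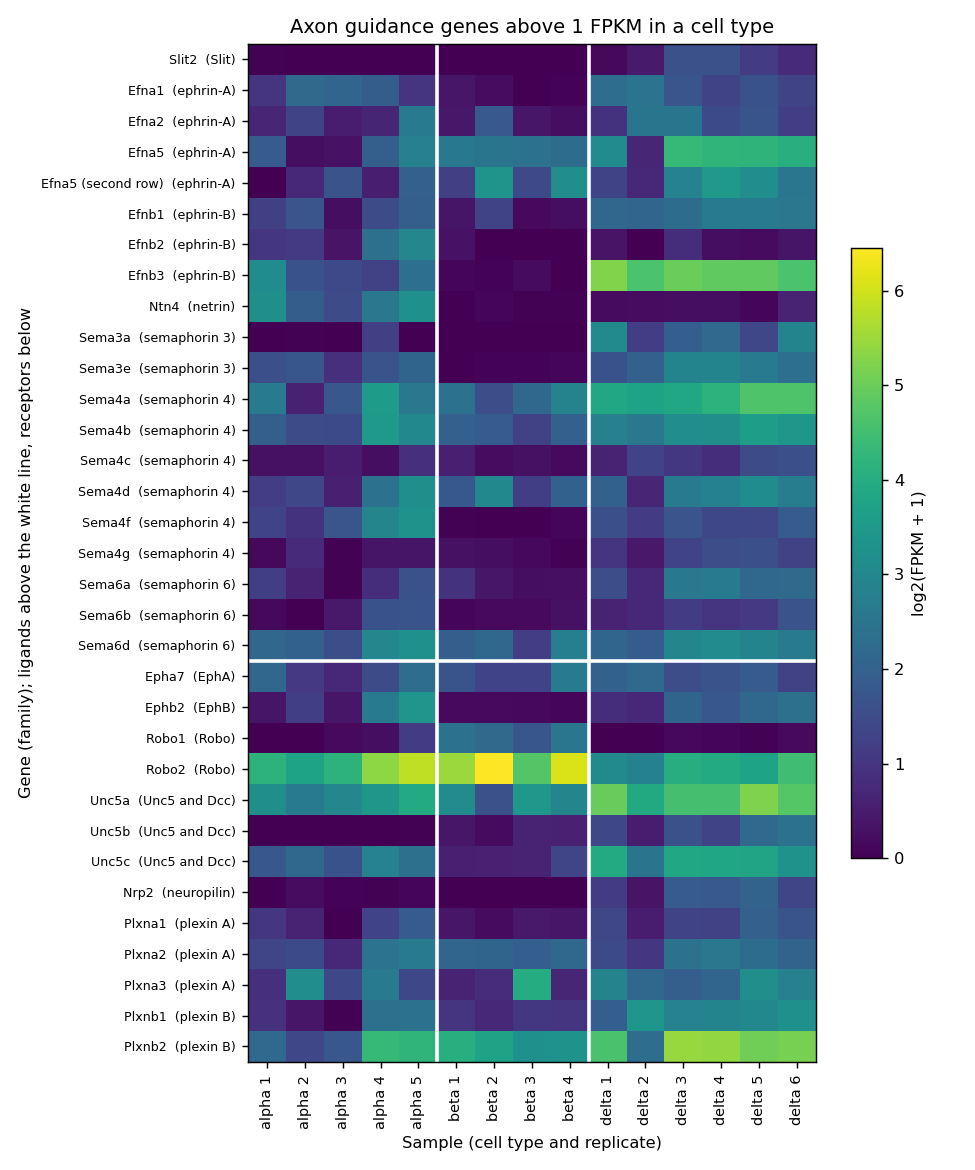
Colour gives log2(FPKM + 1) of the 33 tested genes (rows, family in brackets, ligands above the white line and receptors below) in each of the 15 samples (columns). Efnb3 stands out in delta cells, Robo1 in beta cells and Ntn4 in alpha cells, while Robo2 is high in all 3 cell types, and many rows are darker in alpha 1 to 3 and delta 2 than in the other samples of those types.

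The samples differed in ways that the cell types do not explain. Summed FPKM of 81 ribosomal protein genes was above 50000 in alpha 1 to 3, beta 2, delta 1 and delta 2 (65610 to 140978) and lower in the other 9 samples (7919 to 38775). Within alpha cells, 29 of the 33 guidance genes were higher in the 2 low-ribosomal samples than in the 3 high ones, with a median difference of 0.72 on the log2 scale, against 44% of all 14405 genes tested and a median of -0.02. In delta cells this held for 27 of 33 (median 0.55), against 43.4% of all genes (median -0.08). In beta cells it held for 14 of 33, against 20.9% of all genes. Log2 differences within the high and the low set are given beside the called ones of guidance genes, the high set holding a single beta sample. For the effectors described at the end they were not taken. The marker genes of each labelled cell type were highest in that type. Summed FPKM of the 4 alpha cell markers was 184519 to 345011 in alpha cells and at most 1819 elsewhere, and that of the 3 delta cell markers was 102581 to 267799 in delta cells and at most 3345 elsewhere. The 5 beta cell markers summed to 118227 to 776274 in beta cells and at most 12687 elsewhere.

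Markers of other pancreatic cells also differed. All 7 acinar markers had a mean above 1 FPKM in delta and in alpha cells, as did 1 of them in beta cells, and their sums were 90.1 to 580, 8.17 to 84.1 and 0.0283 to 12.7 FPKM. The 7 immune markers summed to 21.5 to 44.8 FPKM in delta, 8.78 to 28.4 in alpha and 1.37 to 21.9 in beta cells. For the 8 endothelial markers the sums were 3.37 to 6.17 in delta, 1.54 to 3.43 in alpha and 0.642 to 3.84 in beta cells, and Tek and Cdh5 were at 0 in all alpha samples. A single endothelial marker had means of 3.79, 2.16 and 1.71 FPKM in delta, alpha and beta cells, and a single immune marker 24.4, 17.2 and 8.19 FPKM. The 7 mesenchymal markers reached 3.81 FPKM in sum in alpha cells, with 1 gene reaching 3.79, and 0.101 in delta cells. The duct markers (5 genes) summed to 40.5 to 184 in alpha, 14.3 to 33.2 in beta and 36.5 to 108 in delta cells, and the Schwann cell markers (5 genes) to at most 9.26 FPKM in any sample. The part of such cells in the differences below was not tested. In sorted bulk samples, fewer cells of a type and less RNA per cell cannot be told apart.

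Differences between cell types were tested with limma on log2(FPKM + 1), a scale that understates the changes of low genes, with adjustment over all 14405 genes. Across the 3 cell types 19 of the 33 guidance genes (57.6%) had an adjusted p under 0.05, against 16.0% of all genes tested. Delta cells had higher levels than beta cells for 17 genes and lower levels for 2, where 11.7% and 2.99% of all genes tested were called in those directions. Delta cells had higher levels than alpha cells for 8 genes and lower for 1, against 5.33% and 1.48% of all genes. In the low-ribosomal samples alone that split was 4 higher and 3 lower (3.03% and 1.45% of all genes), and 5 of the 8 higher calls were lost, those of Plxnb1, Sema3a, Sema4a, Unc5a and Unc5c. Beta cells had a higher level than alpha cells for 1 gene and lower for 6, against 2.84% and 4.82%. Without beta 4 the delta against beta count was 12, where the share of all genes called in either direction went from 14.7% to 9.89%. In the low-ribosomal samples alone the beta against alpha count was 12, where that share went from 7.66% to 9.78%. Because all 3 comparisons share samples, their calls are not independent of each other.

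The median log2 difference over the 33 genes was 1.02 for delta against beta cells, 0.81 for delta against alpha and -0.36 for beta against alpha. Over all genes tested it was 0.30, 0.13 and -0.13. Within the high-ribosomal set the guidance genes had medians of 0.74, 0.59 and -0.04 (all genes -0.15, 0.11 and 0.35), and within the low set 1.36, 0.60 and -0.74 (all genes 0.45, 0.13 and -0.25). All 20 tested ligands had a positive difference between delta and beta cells, as did 10 of the 13 receptors and 62.9% of all genes. The ligands Slit2, Sema3a, Sema4c, Sema4g, Sema6a and Sema6b and the receptors Unc5b and Nrp2 entered the test through delta cells alone. For these the filter favoured a positive sign, so they do not count as independent cases. Rescaling moved the background of all genes. With median-ratio size factors the median of all genes shifted by -0.28, -0.12 and 0.13 in the same order, and with quantile normalization by -0.30, -0.17 and 0.11. The members' own medians became 0.89, 0.69 and -0.18 with the size factors and 0.69, 0.44 and -0.23 with the quantiles. Among all genes, delta against beta cells then had 1379 higher and 1296 lower calls with the size factors and 1397 and 1348 with the quantiles, against 1683 and 431 before, so that the lower calls rose by more than the higher ones fell. For delta against alpha cells they were 723 and 344, and 618 and 470, against 768 and 213. For beta against alpha cells both directions rose, from 409 and 695 to 1092 and 983, and to 937 and 1033. The higher share of the calls thereby went from 79.6% to 51.6% and 50.9%, from 78.3% to 67.8% and 56.8%, and from 37% to 52.6% and 47.6%. The guidance genes with the size factors had 12 positive and 2 negative calls for delta against beta, beside 9.57% and 9.0% of all genes. They had 5 and 1 for delta against alpha, beside 5.02% and 2.39%, and 1 and 7 for beta against alpha, beside 7.58% and 6.82%. With the quantiles they had 12 and 2 (9.70% and 9.36% of all genes), 6 and 2 (4.29% and 3.26%), and 1 and 7 (6.50% and 7.17%).

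**Figure D2:**
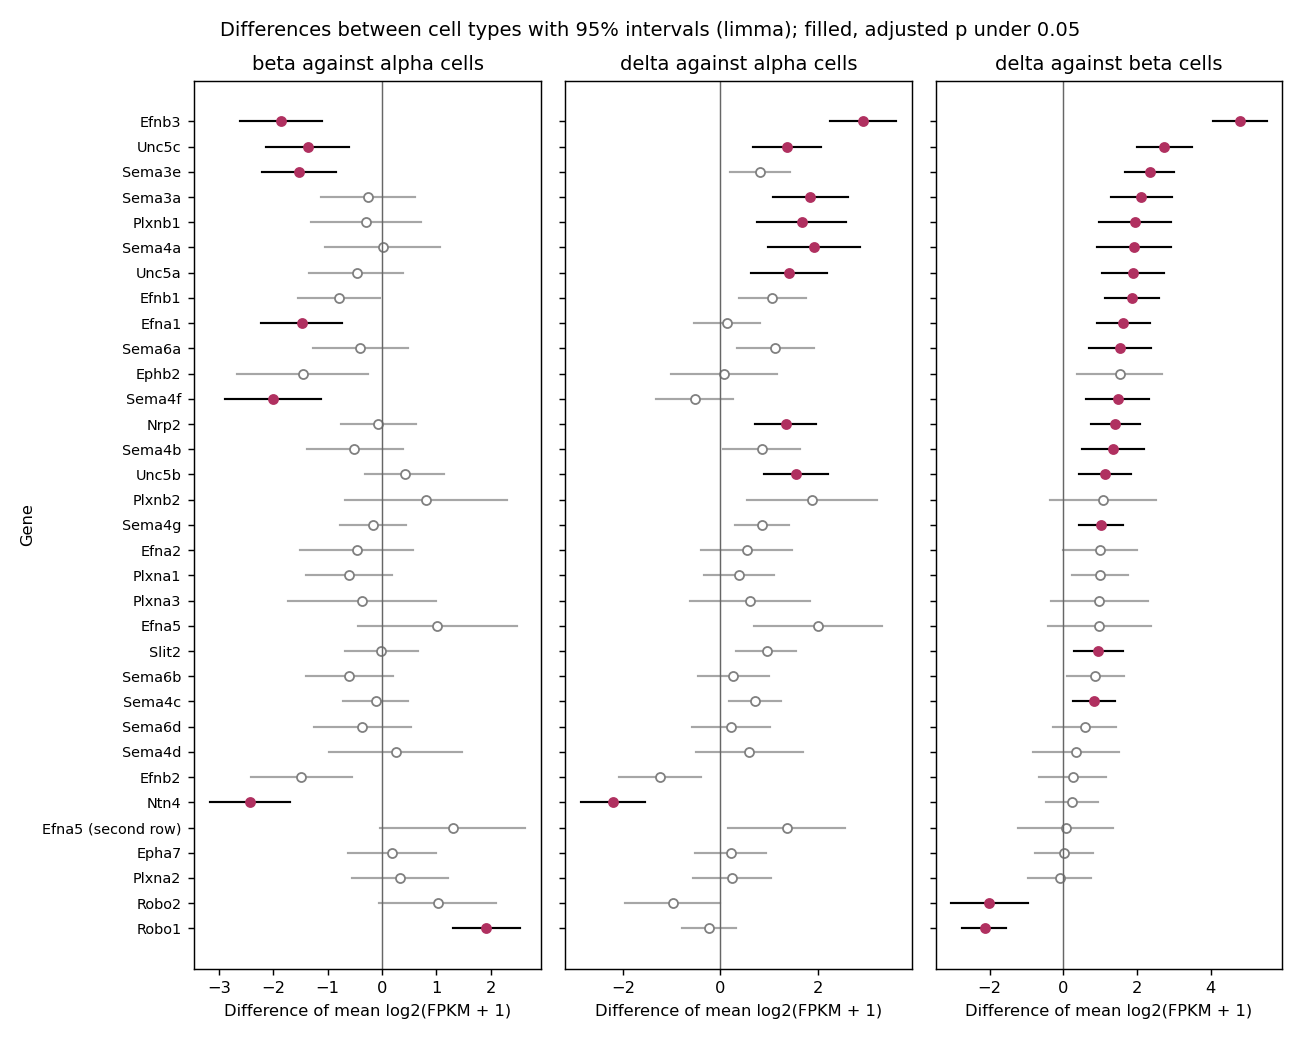
Differences of mean log2(FPKM + 1) between cell types (horizontal axis, 1 panel per comparison) for the 33 tested genes, with 95% limma intervals; filled points passed an adjusted p of 0.05. Most points lie to the right of 0 in both delta comparisons, Efnb3 farthest, and Robo1, Robo2 and Ntn4 are the filled points to the left of 0 there.

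Samples of 2 cell types did not overlap for 21 guidance genes in delta against beta cells (14.9% of all genes tested), 7 in delta against alpha cells (6.64%) and 10 in beta against alpha cells (8.12%). Ntn4 was the gene called higher in alpha cells than in both other types, where 0.930% of all genes met that rule, and Robo1 was the gene called higher in beta cells than in both others (1.58% of all genes). In delta cells 8 genes were higher than in both others (3.65% of all genes): Efnb3, Sema3a, Sema4a, Nrp2, Plxnb1, Unc5a, Unc5b and Unc5c. In the low-ribosomal samples alone 4 genes met that rule (2.44% of all genes), Efna5 and, from the 8, Efnb3, Nrp2 and Unc5b. With size factors 4 met it (3.16%) and with quantile normalization 5 (2.71%). Leaving out each sample in turn gave 5 to 11 (2.90% to 4.04% of all genes), with 5 without alpha 1, delta 5 or delta 6. Beta cells were lower than both others for 5 genes (2.94% of all genes), namely Efna1, Efnb3, Sema3e, Sema4f and Unc5c. Such genes were 3 without beta 1 (1.48% of all genes), 3 without beta 4 (1.62%) and 3 when 2 cell types alone were fitted (1.48%). In the low-ribosomal samples alone these were 9 (6.17%), without Efna1, and the genes higher in alpha cells than in both others were 3 (1.10%), Efnb2, Ntn4 and Sema4f.

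The promoters of 3 genes are shown, 1 for each cell type, to let their sequence be set beside their levels. They belong to the gene called higher in that cell type than in both others with the largest smaller difference, among genes with a single promoter entry. Each is the run of 250 bases before the RefSeq start of the gene in GRCm38.p6, read in the direction of transcription, and contains no annotated exon (GENCODE M21). All 3 windows lie inside the span of the gene in that annotation, upstream of 1 of its transcripts, since other transcripts begin earlier, at base 93640681 for Ntn4, 72308306 for Robo1 and 13125414 for Sema3a. Ntn4 (chr10:93640799-93641048, plus strand) was highest in alpha cells, Robo1 (chr16:72662899-72663148, plus strand) in beta cells and Sema3a (chr5:13396534-13396783, plus strand) in delta cells. Capitals mark matches to the 5 motifs described after them.
Ntn4: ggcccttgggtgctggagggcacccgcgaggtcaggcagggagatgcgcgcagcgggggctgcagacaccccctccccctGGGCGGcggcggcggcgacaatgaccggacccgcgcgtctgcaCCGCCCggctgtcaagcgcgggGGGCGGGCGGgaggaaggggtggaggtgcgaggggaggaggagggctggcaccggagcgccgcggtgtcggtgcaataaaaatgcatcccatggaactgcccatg
Robo1: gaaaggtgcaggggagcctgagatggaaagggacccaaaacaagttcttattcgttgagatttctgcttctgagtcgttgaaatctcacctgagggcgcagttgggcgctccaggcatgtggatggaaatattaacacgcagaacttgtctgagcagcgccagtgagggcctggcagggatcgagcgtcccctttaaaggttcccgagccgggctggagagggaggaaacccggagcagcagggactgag
Sema3a: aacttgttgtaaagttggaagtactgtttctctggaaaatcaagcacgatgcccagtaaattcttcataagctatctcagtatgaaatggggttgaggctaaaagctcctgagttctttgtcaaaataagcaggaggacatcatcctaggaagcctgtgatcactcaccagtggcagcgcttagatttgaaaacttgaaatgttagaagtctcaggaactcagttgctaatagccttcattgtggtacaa

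The Ntn4 window held 4 matches to the GC box GGGCGG or its reverse complement, 2 of which overlap, 26 CpG dinucleotides and 73.2% G and C. The Robo1 window held 11 CpG and 56% G and C, and the Sema3a window 2 CpG and 40.8%. Neither of these had a match to any motif searched, which were the GC box, the TATA box TATAAA, the E-box CATCTG, the homeodomain core TAATTA and the forkhead core TGTTTAC, on both strands. RefSeq promoter entries were found for 59 of the 69 symbols, 75 windows in all. Of these windows, 53 (70.7%) held the GC box, against 32.7% of 32851 windows of all genes. The TATA box was in 2.67% (2 windows) against 12.4%, the E-box in 6.67% (5) against 14.4% and the homeodomain core in 4% (3) against 4.84%. No window of a guidance gene held the forkhead core, which 3.17% of all windows did, a share too low for its absence from 75 windows to tell. The comparison windows cover 27025 symbols, expressed in these cells or not, and the part of that choice in the gaps was not tested. The median number of CpG was 15 in windows of guidance genes and 6 in all windows. The motifs were chosen with the expression values known, several windows can belong to 1 gene, and a match in letters is not a binding site.

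Among the ephrins, Efnb3, a transmembrane ligand of EphB receptors and Epha4 known from the spinal cord midline, set delta cells apart. Its gene lies at chr11:69554092-69560205 on the minus strand (GRCm38). It stood at 7.74, 2.07, 1.67, 1.36 and 4.16 FPKM in the 5 alpha samples and at 0.0608, 0.0437, 0.149 and 0.00938 FPKM in the 4 beta samples. In the 6 delta samples its level ran from 23.8 to 36.9 FPKM, with a median of 28.6. The samples of the 3 cell types did not overlap, delta being highest and beta near 0. Means were 28.9 ± 4.92 FPKM (SD, n = 6) in delta, 3.40 ± 2.66 (n = 5) in alpha and 0.0657 ± 0.0596 (n = 4) in beta cells, an 8.49-fold higher mean in delta than in alpha cells. The log2 differences were 2.93 ± 0.321 (SE, adjusted p = 1.64e-05) for delta against alpha, 4.79 ± 0.343 (adjusted p = 1.29e-07) for delta against beta and -1.86 ± 0.356 (adjusted p = 0.00382) for beta against alpha. Within the high-ribosomal set these were 2.88, 4.88 and -1.99, and within the low set 3.05, 4.76 and -1.70.

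Efnb1, the ephrin-B on the X chromosome, had a smaller contrast. Alpha samples had 1.33, 2.23, 0.173, 1.80 and 2.90 FPKM, beta samples 0.283, 1.51, 0.128 and 0.189, and delta samples 3.28 to 5.33 with a median of 4.36. Every delta sample lay above every alpha and beta sample. The difference was 1.86 ± 0.346 against beta cells (adjusted p = 0.00165) and 1.07 ± 0.324 against alpha cells, which missed the threshold (adjusted p = 0.0603). The beta contrast was 0.78 within the high set and 2.27 within the low set. Efnb2, which marks arteries and acts on EphB receptors, was instead highest in alpha cells. Its values were 1.04, 1.12, 0.274, 4.17 and 6.98 FPKM there, with at most 0.235 in beta and 0.792 in delta cells. The alpha and beta samples did not overlap, but neither difference from alpha cells passed the test (adjusted p = 0.0508 and 0.0835). In the test across the 3 cell types Efnb2 was called (adjusted p = 0.0426). Together the 3 ephrin-B genes summed to 33.5 ± 4.84 FPKM in delta, 7.80 ± 4.54 in alpha and 0.655 ± 0.623 in beta cells.

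Of the ephrin-A ligands, which are tethered to the membrane by a lipid anchor, Efna1 was lowest in beta cells. It had 1.00, 3.69, 3.34, 2.75 and 0.977 FPKM in alpha samples, 0.313, 0.158, 0 and 0.0359 in beta samples, and 1.48 to 4.48 (median 2.16) in delta samples. No beta sample reached any alpha or delta sample. The difference from beta cells was 1.62 ± 0.338 for delta cells (adjusted p = 0.00404), and beta cells were 1.48 lower than alpha cells on the log2 scale (log2 difference -1.48 ± 0.351, adjusted p = 0.0172). That second call was lost without beta 4 (adjusted p = 0.0502) and in the low-ribosomal samples alone (0.054). In the high and low sets the delta against beta difference was 2.17 and 1.34, and that of beta against alpha cells -1.57 and -1.30. Delta and alpha cells differed by 0.14 with an interval of -0.54 to 0.81.

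Efna5 was the ephrin-A with the highest mean, and in the islet it is known as a beta cell ligand. Its main identifier gave 2.60, 0.174, 0.235, 2.87 and 6.01 FPKM in alpha, 5.12, 4.72, 4.29 and 3.86 in beta, and 0.615 to 18.9 (median 16.6) in delta samples. Among the delta samples, delta 2 alone was below the beta samples. The difference of delta from alpha cells was 2.01 ± 0.622 and did not pass (adjusted p = 0.0688). The second identifier, which had no entry in the annotation used, gave means of 1.24 ± 1.24 in alpha, 5.05 ± 4.13 in beta and 5.23 ± 3.69 FPKM in delta cells. Reads may have been divided between both, and their sum was 3.62 ± 3.11, 9.55 ± 3.95 and 18.2 ± 10.6 FPKM. Efna2 overlapped between all cell types, with means of 1.71, 0.830 and 2.58 FPKM in alpha, beta and delta cells.

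The Eph receptors were low. Epha7 and Ephb2 were the members above the filter, and neither passed a pairwise test. Epha7, the EphA receptor with the highest mean, was alike in level: 2.18 ± 1.42 FPKM in alpha, 2.64 ± 1.91 in beta and 2.45 ± 0.786 in delta cells. The interval of the log2 difference between delta and beta cells was -0.77 to 0.80. Ephb2 had 0.290, 1.30, 0.312, 5.35 and 9.30 FPKM in alpha samples, 0.125, 0.113, 0.0944 and 0.0610 in beta samples and 0.685 to 4.24 (median 2.82) in delta samples. All beta samples were below all others, and in alpha cells the 2 low-ribosomal samples were the high ones. The adjusted p was 0.133 for beta against alpha and 0.0733 for delta against beta cells. Epha8 stayed under 1 FPKM, yet its 6 delta samples were at 0.261 to 0.636 FPKM and no other sample exceeded 0.0317. Epha4, an ephrin-B receptor as well, did not exceed 0.0927 FPKM. Set beside their ligands, the 9 EphA genes summed to 2.77 ± 1.53, 2.88 ± 1.99 and 3.71 ± 0.782 FPKM in alpha, beta and delta cells. The 5 EphB genes summed to 4.16 ± 3.56, 0.266 ± 0.164 and 3.27 ± 1.34 FPKM, lowest in beta cells like the ephrin-B sum.

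**Figure D3:**
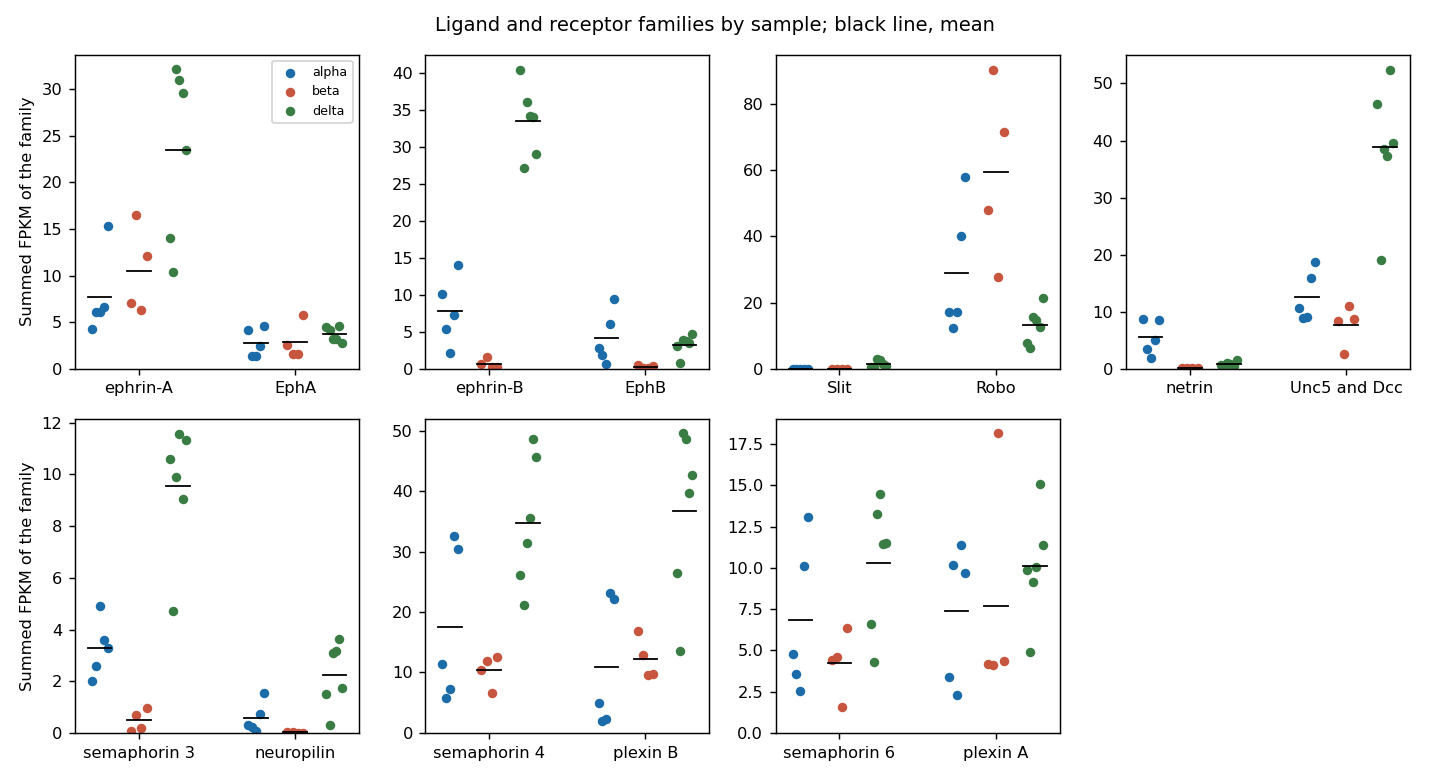
Summed FPKM of each ligand family (left of each panel) and of a receptor family set beside it (right), 1 point per sample, with black lines at the means. Not every ligand acts through the receptors shown, as for Sema3e, which does not need a neuropilin. Delta cells lead in ephrin-B (27.1 to 40.5 FPKM), semaphorin 3 and the Unc5 and Dcc group, beta cells have the highest Robo sums, and the netrin sum is highest in alpha cells.

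Of the class 3 semaphorins, which are secreted, Sema3a and Sema3e had no beta sample above 0.0739 FPKM. Sema3e, which binds Plxnd1 without needing a neuropilin, had 2.00, 2.31, 0.833, 2.22 and 3.24 FPKM in alpha samples, 0.0140, 0.0436, 0.0402 and 0.0739 in beta samples and 2.10 to 6.56 (median 4.67) in delta samples. Beta samples were apart from all others. The log2 differences were 2.34 ± 0.312 for delta against beta (adjusted p = 9.55e-05) and -1.53 ± 0.324 for beta against alpha cells (adjusted p = 0.00786). They were 1.75 and -1.33 in the high set and 2.64 and -1.83 in the low set. Delta and alpha cells overlapped (difference 0.81, adjusted p = 0.129). Its receptor gene Plxnd1 was at 0.130 ± 0.222, 0.0350 ± 0.0612 and 0.427 ± 0.761 FPKM in alpha, beta and delta cells, with 1 delta sample at 1.91.

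Sema3a, a ligand of Nrp1 with plexin A, was listed at 0 in all 4 beta samples and in alpha 1 and 3. Alpha 2 had 0.0228, alpha 5 0.00891 and alpha 4 1.35 FPKM. The delta samples ran from 1.27 to 7.35 FPKM with a median of 3.19, overlapping only with alpha 4. The difference was 1.85 ± 0.367 against alpha cells (adjusted p = 0.00395) and 2.11 ± 0.391 against beta cells (adjusted p = 0.00165). In low-ribosomal samples alone the first fell short (1.48, adjusted p = 0.151), against 2.11 in the high set, and the second was 2.12 in the high and 2.10 in the low set. Sema3c, the third class 3 gene of any size, averaged 0.864 ± 1.79 FPKM in alpha cells, where a single sample had 4.06, and 0.411 ± 0.411 in beta and 0.735 ± 0.579 in delta cells. The other 4 class 3 genes did not exceed 0.481 FPKM in a sample.

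Of the neuropilins, Nrp2 set delta cells apart and Nrp1 was not tested. Nrp2, a co-receptor for class 3 semaphorins and for lymphatic growth factors, was at 0, 0.157, 0.0456, 0.0237 and 0.0648 FPKM in alpha samples, at 0.0152, 0.0169, 0 and 0.00665 in beta samples and at 0.269 to 3.15 (median 2.02) in delta samples. All delta samples were above all others, the lowest being delta 2. The difference from alpha cells was 1.34 ± 0.295 (adjusted p = 0.00886) and from beta cells 1.41 ± 0.315 (adjusted p = 0.0066). Within the high-ribosomal set these were 0.64 and 0.70, and within the low set 1.70 and 1.76. Nrp1 stayed under the filter, at 0.518 ± 0.608 FPKM in alpha, 0.00826 ± 0.00958 in beta and 0.368 ± 0.209 in delta cells. Both neuropilins are also expressed by endothelial cells, whose markers were summed above.

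Class 4 semaphorins are membrane proteins, several of which act on plexin B. Sema4a, studied mostly in immune cells, had 5.48, 0.521, 2.36, 11 and 5.01 FPKM in alpha samples, 4.31, 1.86, 3.55 and 6.37 in beta samples and 12.4 to 24.5 (median 15.3) in delta samples. Delta samples did not overlap with the others. The differences were 1.92 ± 0.448 against alpha (adjusted p = 0.0132) and 1.91 ± 0.478 against beta cells (adjusted p = 0.0128). With median-ratio size factors both missed the threshold (0.0667 and 0.0826), and in the low-ribosomal samples the alpha contrast was 1.25 (adjusted p = 0.163) and the beta contrast 1.85. The high set gave 2.13 and 2.29.

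Sema4f was lowest in beta cells. It was at 1.45, 0.937, 2.27, 6.66 and 8.81 FPKM in alpha samples, 0.0342, 0, 0 and 0.0703 in beta samples and 1.22 to 2.65 (median 1.79) in delta samples. All beta samples were below all others. The log2 difference of beta from alpha cells was -2.0 ± 0.417 (adjusted p = 0.00713), and it was -1.32 within the high-ribosomal and -3.07 within the low set. It missed the threshold when 2 cell types alone were fitted (0.0668). Delta and alpha samples overlapped, with a difference of -0.53 (adjusted p = 0.556). Delta cells were 1.47 ± 0.401 above beta cells (adjusted p = 0.0212), which did not hold without beta 1 (0.0512) or beta 4 (0.0504) and was 1.36 in the high and 1.53 in the low set.

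Sema4b, Sema4c and Sema4g were called in delta against beta cells only, and Sema4b and Sema4c were not called in the test across the 3 cell types (adjusted p = 0.0623 and 0.0598). Sema4b was at 4.74 ± 3.75 FPKM in alpha, 2.49 ± 0.768 in beta and 7.97 ± 2.25 in delta cells, and the 6 delta samples (5.05 to 11.1) exceeded all beta samples (1.36 to 2.97). Its difference was 1.35 ± 0.402 with an adjusted p of 0.0329, lost on leaving out any of 7 samples in turn, beta 1, 3 or 4 or delta 3 to 6 (at most 0.0897), and with size factors (0.13) or quantile normalization (0.105). It was 0.82 in the high and 1.60 in the low set. Sema4g was at 0.283 ± 0.267, 0.128 ± 0.0839 and 1.35 ± 0.600 FPKM, with a difference of 1.02 ± 0.279 (adjusted p = 0.0219) that missed the threshold without beta 4 (0.0643) and with quantile normalization (0.57, adjusted p = 0.11). The high set gave 0.49 and the low set 1.27. Sema4c was at 0.370 ± 0.264, 0.251 ± 0.162 and 1.27 ± 0.562 FPKM. Its difference of 0.83 ± 0.269 was just past the threshold (adjusted p = 0.0486) and was lost on leaving out any sample but alpha 5 or delta 1 (at most 0.123, without beta 4), with size factors (0.112), with quantile normalization (0.32, adjusted p = 0.46) and in the low-ribosomal samples alone (0.89, adjusted p = 0.0685). The high set gave 0.75. Sema4d, the ligand of Plxnb1 expressed by lymphocytes, had means of 3.20, 3.46 and 4.75 FPKM in alpha, beta and delta cells and no call.

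Among the plexins, the mean of Plxnb2 was the highest in each cell type, and Plxnb1 was called. Plxnb1, a receptor of Sema4d, had 0.885, 0.303, 0.0227, 4.24 and 4.42 FPKM in alpha samples, 1.00, 0.645, 1.08 and 0.995 in beta samples and 2.83 to 9.53 (median 6.81) in delta samples. Delta samples were all above beta samples but overlapped with alpha 4 and 5. The difference from beta cells was 1.95 ± 0.458 (adjusted p = 0.00882), with 1.95 in the high and 2.0 in the low set. From alpha cells it was 1.67 ± 0.430 (adjusted p = 0.0248), with 2.22 within the high-ribosomal set and 0.60 within the low set, where it was not called (adjusted p = 0.299). The call was also lost with either rescaling (at most 0.0743), when 2 cell types alone were fitted (0.0699) and on leaving out any of alpha 1 to 3 or delta 2, 4, 5 or 6 (at most 0.0753).

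Plxnb2, the receptor gene with the highest mean in delta cells, was not called in a pairwise comparison. It had 3.63, 1.59, 2.35, 18.9 and 17.6 FPKM in alpha samples, 15.8, 12.2, 8.48 and 8.83 in beta samples, and 3.94 to 42.8 (median 33.2) in delta samples. Delta 2 was the low sample, and the other 5 delta samples (from 23.5) were above every alpha and beta sample. The adjusted p was 0.0977 against alpha and 0.316 against beta cells. The 6 class 4 semaphorins summed to 34.8 ± 10.8 FPKM in delta, 17.5 ± 13.0 in alpha and 10.4 ± 2.72 in beta cells, and the 3 plexin B genes to 36.8 ± 14.1, 10.9 ± 10.8 and 12.2 ± 3.37 FPKM.

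Class 6 semaphorins, membrane ligands of plexin A, showed 1 call. Sema6a was at 1.30, 0.554, 0.0261, 0.803 and 2.03 FPKM in alpha samples, 0.918, 0.319, 0.177 and 0.203 in beta samples and 0.641 to 5.47 (median 3.64) in delta samples. Delta cells exceeded beta cells by 1.53 ± 0.398 (adjusted p = 0.0159), although delta 2 lay below beta 1, and the call was lost without beta 4 (0.0511). Within the high and low sets the difference was 0.74 and 1.94. Sema6d, the class 6 gene with the highest mean, was at 4.75 ± 2.82, 3.40 ± 1.94 and 5.39 ± 2.01 FPKM and did not pass in any comparison. The plexin A genes were also not called. Plxna1 was at 1.14 ± 1.02, 0.279 ± 0.0984 and 1.67 ± 0.837 FPKM in alpha, beta and delta cells, and its delta samples (0.405 to 2.91) were all above its beta samples (0.135 to 0.358), with a difference of 1.00 (adjusted p = 0.0751). Plxna3 was at 3.48 ± 3.04 FPKM in alpha, 4.24 ± 7.19 in beta and 5.03 ± 2.13 in delta cells, and the beta mean rested on beta 3, with 15 FPKM against at most 0.757 in the other beta samples. Plxna2 was at 2.76 ± 2.06, 3.19 ± 0.262 and 3.19 ± 1.54 FPKM, and its delta and beta means differed by -0.09 with an interval of -0.95 to 0.76. Plxna4 reached 0.421 FPKM, in delta cells. Class 5 and 7 semaphorins stayed low, with Sema5a at 0.171 ± 0.133, 0.00937 ± 0.00777 and 0.177 ± 0.123 FPKM in alpha, beta and delta cells. Sema7a was listed at 0 except for 2 delta samples (0.295 and 0.0824), and its receptor gene Plxnc1 was at 0.172 to 1.40 FPKM in delta cells and at most 0.0928 in alpha and 0.0334 in beta cells.

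Robo1 and Robo2 had their highest means in beta cells. Robo2 had the highest mean of the guidance genes in alpha and in beta cells but not in delta cells, with 17.0, 12.4, 17.0, 40.0 and 56.5 FPKM in alpha samples, 43.7, 86.7, 25.5 and 66.7 in beta samples and 6.11 to 21.2 (median 13.3) in delta samples. Beta samples were all above delta samples, and alpha samples overlapped with both. The mean was 4.36-fold higher in beta (55.7 ± 26.7) than in delta cells (12.8 ± 5.54). Its log2 difference was -2.01 ± 0.488 for delta against beta cells (adjusted p = 0.0108), -3.51 within the high-ribosomal set, which has a single beta sample, and -1.39 within the low set. Neither difference from alpha cells (28.6 ± 19.0) was called, with 1.03 for beta (adjusted p = 0.241) and -0.98 for delta cells (adjusted p = 0.29).

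Robo1, also a Slit receptor, showed an excess in beta cells. Beta samples had 4.32, 3.68, 2.33 and 4.78 FPKM, alpha samples 0, 0, 0.119, 0.180 and 1.2, and delta samples 0.0122 to 0.115 (median 0.0539). The beta samples did not overlap with the others, alpha 5 being nearest. The log2 difference was 1.92 ± 0.291 for beta against alpha cells (adjusted p = 0.000525) and -2.14 ± 0.280 for delta against beta cells (adjusted p = 8.19e-05). Within the high and low ribosomal sets the first was 2.17 and 1.54, and the second -2.21 and -2.11. Robo3 was at 0 to 0.477 FPKM in delta cells, 0.0274 in alpha 1 and listed at 0 elsewhere. Robo4, the endothelial Robo, did not exceed 0.206 FPKM.

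The Slit ligands were found in delta cells. Slit2 was listed at 0 in all 4 beta samples and 3 alpha samples, with 0.0199 and 0.00245 FPKM in alpha 1 and 4. The delta samples had 0.0971, 0.381, 2.05, 2.06, 1.17 and 0.716 FPKM, of which the 2 lowest are the high-ribosomal samples. All delta samples exceeded all others. The difference was 0.95 ± 0.309 against beta cells (adjusted p = 0.0493), a call lost on leaving out any alpha or beta sample or delta 5 or 6 (at most 0.105), and 0.95 ± 0.290 against alpha cells (adjusted p = 0.0656). The beta contrast was 0.30 within the high and 1.28 within the low set, and it was not called with quantile normalization (0.0565). Slit1 and Slit3 reached at most 0.317 and 0.490 FPKM, in delta cells. Side by side, the 3 Slit genes summed to 1.42 ± 1.08 FPKM in delta cells and at most 0.0199 in any alpha or beta sample, and the 4 Robo genes to 13.1 ± 5.50 in delta, 28.9 ± 19.5 in alpha and 59.4 ± 27.3 FPKM in beta cells. The ligand sum was highest where the receptor sum was lowest.

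**Figure D4:**
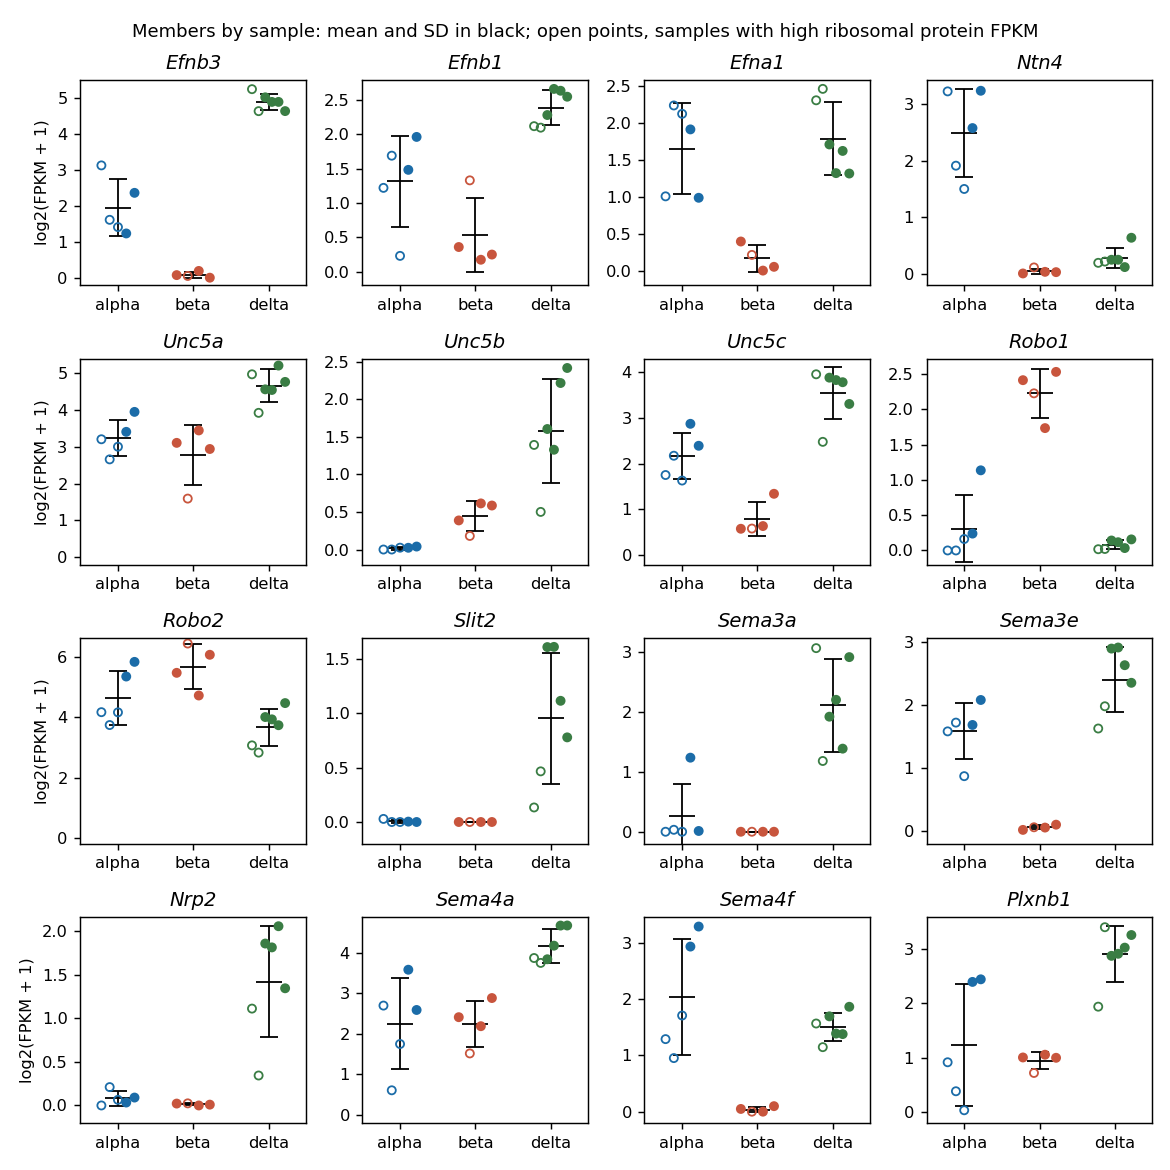
Each panel shows 1 gene as log2(FPKM + 1) by cell type, 1 point per sample (open points are samples with ribosomal protein sums above 50000 FPKM), with the mean and SD in black. Efnb3 separates the 3 types, Ntn4 is highest in alpha cells, Robo1 in beta cells, and Nrp2, Slit2 and Sema4a in delta cells, with open delta points lowest for Nrp2 and Slit2.

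Among the netrins, Ntn4, a laminin-related protein of basement membranes, was an alpha cell gene. It lies at chr10:93640681-93747207 on the plus strand, and the Ntn4 window printed above is the run before 1 of its 2 annotated transcripts. Alpha samples had 8.31, 2.76, 1.83, 4.95 and 8.39 FPKM, beta samples 0.00717, 0.0841, 0.0273 and 0.0235, and delta samples 0.0887 to 0.558 (median 0.178). Every alpha sample exceeded every other sample. The log2 difference from alpha cells was -2.44 ± 0.346 for beta (adjusted p = 0.000266) and -2.21 ± 0.312 for delta cells (adjusted p = 0.000208). Within the high-ribosomal set these were -2.09 and -2.0, and within the low set -2.87 and -2.59. The mean was 5.25 ± 3.05 FPKM in alpha cells, 23.5-fold above delta cells (0.223 ± 0.168). Ntn1, the classical chemoattractant, reached at most 0.117 FPKM, and Ntn3 1.04 FPKM in a single delta sample.

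Unc5 receptors mediate repulsion from netrins, and Unc5a, Unc5b and Unc5c all had their highest level in delta cells. Unc5a had 8.21, 5.31, 7, 9.59 and 14.4 FPKM in alpha samples, 7.61, 2.01, 9.87 and 6.67 in beta samples and 14.1 to 35.9 (median 24.3) in delta samples. All delta samples were above the beta samples, and delta 2 alone lay just under alpha 5. The difference was 1.89 ± 0.393 against beta (adjusted p = 0.00398) and 1.42 ± 0.369 against alpha cells (adjusted p = 0.0263). With size factors the first was 1.43 (adjusted p = 0.0676), and it was 2.85 in the high and 1.60 in the low set. The second was lost on leaving out any of alpha 1 to 3, delta 1 or delta 3 to 6 (at most 0.0777), with both rescalings (at most 0.155) and in the low-ribosomal samples (1.09, adjusted p = 0.139), with 1.49 in the high set.

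Unc5c followed the order delta, alpha, beta. It was at 2.36, 3.50, 2.09, 6.28 and 4.23 FPKM in alpha samples, 0.494, 0.499, 0.556 and 1.53 in beta samples and 4.55 to 14.4 (median 12.9) in delta samples. Beta samples were below all others, and of the delta samples delta 2 alone lay below an alpha sample, alpha 4. Delta cells were 2.74 ± 0.350 above beta cells (adjusted p = 6.31e-05) and 1.37 ± 0.328 above alpha cells (adjusted p = 0.0156). The latter did not pass without alpha 1 (0.0503) or in the low-ribosomal samples (1.06, adjusted p = 0.151), with 1.36 in the high set. The beta contrast was 2.62 in the high and 2.84 in the low set. For beta against alpha cells the log2 difference was -1.37 ± 0.363 (adjusted p = 0.0307), which was lost on leaving out any of 5 samples, namely alpha 2, 4 or 5 or beta 1 or 3 (at most 0.0874), and when 2 cell types alone were fitted (0.064). It was -1.27 in the high and -1.77 in the low set.

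Unc5b, known from blood vessel guidance, was listed at 0 in alpha 1 and 2 and at 0.0171, 0.0162 and 0.0278 FPKM in the other alpha samples. Beta samples had 0.308, 0.133, 0.53 and 0.5 FPKM and delta samples 0.415 to 4.33 (median 1.83). Of the delta samples, delta 2 alone overlapped with the beta samples. The difference was 1.56 ± 0.311 against alpha (adjusted p = 0.00423) and 1.13 ± 0.331 against beta cells (adjusted p = 0.0301), the latter lost on leaving out any of beta 1, 2 or 4 or delta 3, 5 or 6 (at most 0.0729) and with quantile normalization (0.62, adjusted p = 0.251) or size factors (0.0972). In the high set these differences were 0.94 and 0.77, and in the low set 1.86 and 1.36. Unc5d reached 0.411 FPKM, in delta cells. Dcc, an attractive netrin receptor, had a value of 0 in every alpha and beta sample and did not exceed 0.0506 FPKM in delta cells. Neo1 and Dscam fall outside the symbol rule and are counted with the cofactors below. Neo1 averaged 11.9, 10 and 12.3 FPKM in alpha, beta and delta cells without a call, and Dscam 0.128, 0.0152 and 4.36 FPKM. The 5 Unc5 and Dcc genes summed to 38.9 ± 11.3 FPKM in delta, 12.6 ± 4.42 in alpha and 7.68 ± 3.55 in beta cells, whereas the 4 netrins summed to 0.787 ± 0.498, 5.51 ± 3.05 and 0.0922 ± 0.0746 FPKM. The alpha sum was mostly Ntn4 (mean 5.25 FPKM), and whether it acts on these receptors was not tested.

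All 35 calls over the 3 comparisons kept their direction within both ribosomal sets. The calls belong to 20 genes. Of the 35, 14 had an adjusted p under 0.05 in every alternative fit that tested the gene, some of them being removed by the 5 FPKM filter. These 14 are from the delta comparisons, while the beta against alpha calls faced 1 further fit, with alpha and beta samples paired by number. The 14 were Efnb3, Ntn4, Unc5b and Nrp2 against alpha cells, and Efnb3, Efna1, Efnb1, Sema3a, Sema3e, Nrp2, Plxnb1, Unc5c, Robo1 and Robo2 against beta cells. Of the 20 genes, 11 have an annotated gene on the opposite strand within their span, and the strand setting of the processing was not given in the sources used here. Guidance genes were long. The tested members with an annotation entry (32) had a median span of 62798.5 bases and a median longest transcript of 5899.5 bases, against 18709.5 and 2959 for 14000 of all genes tested.

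Besides the ligands and receptors, 73 cofactors and intracellular effectors were listed (76 rows of the table, of which 58 were tested). Cell surface proteins such as Dscam and Met were among them, so the counts are not of downstream signalling alone. Across the cell types 18 of the 58 were called, 31.0% against the 16.0% of all genes. Delta cells had 17 higher than beta cells (29.3%, against 11.7% of all genes) and 2 lower, Nrcam and Rasa1 (3.45%, against 2.99%). They had 8 higher than alpha cells (13.8%, against 5.33%). None was lower in delta than in alpha cells in the limma test (1.48% of all genes were), where 2 had an unadjusted p under 0.05. None was higher in beta than in alpha cells (2.84% of all genes were), where 4 had. The share of all genes at that unadjusted level was not taken for these directions. Lower in beta than in alpha cells were 4, Cfl1, Limk2, Rnd3 and Vasp (6.90%, against 4.82% of all genes). In delta cells 7 exceeded both other types (Crmp1, Dock1, Dscam, Met, Ngef, Pak1 and Tiam1), 12.1% against 3.65% of all genes.

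Pak1, a kinase activated by Rac and Cdc42, was at 11.5 FPKM on average in delta samples (8.21 to 14.9), against 0.685 in alpha (0.0590 to 2.14) and 1.10 in beta samples (0.363 to 1.86). Its log2 differences were 2.98 ± 0.312 (adjusted p = 1e-05) and 2.61 ± 0.332 (adjusted p = 6.25e-05). Tiam1, an exchange factor that activates Rac, was at 18.7 FPKM in delta (3.51 to 32.5), 1.35 in alpha (0.154 to 2.46) and 0.259 in beta samples (0.0524 to 0.683), with differences of 2.93 ± 0.453 (adjusted p = 0.000478) and 3.74 ± 0.483 (adjusted p = 7.02e-05). Delta samples did not overlap with the others for either gene. Rnd3 was at 0 to 0.129 FPKM in beta samples, against 1.30 to 4.80 in alpha samples (log2 difference -1.99 ± 0.335, adjusted p = 0.00129). Cfl1, the actin-severing cofilin, was at 40.3 FPKM in beta (22.4 to 65.5) and 95.5 in alpha cells (73.9 to 119), with a log2 difference of -1.32 ± 0.362 (adjusted p = 0.036).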

How the data were processed

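RNA of sorted alpha, beta and delta cells was amplified before library preparation. The authors aligned single-end reads to GRCm38 with TopHat (TopHat2 2.0.8 per the submitters' processing notes, another version in the study's methods) and deposited Cufflinks 2.2.1 output as FPKM per gene. The annotation release, strand setting and scaling between samples are not given in the sources used here. The authors compared raw counts with edgeR, which was not done here. Single-read steps in the FPKM values could be resolved in 3 samples (7.65 M, 25.2 M and 31 M reads), so no detection floor is given, and a 0 is reported as listed at 0. All 22 widely expressed genes checked were above 0 in every sample.

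Members were matched by symbol. Members and gene lists were chosen with earlier results of these data known. Genes with a mean above 1 FPKM in at least 1 cell type (14405) were tested on log2(FPKM + 1) with limma 3.58.1 in R 4.3.3 (lmFit, eBayes with a trend, all 15 samples, 1 mean per cell type, no covariate), with Benjamini-Hochberg adjustment over all of them and a threshold of 0.05; the fit was tested on simulated data. Other steps used Python 3.11.15. Named genes were those called in a pairwise comparison, the member with the highest mean of each of 18 families, those listed at 0 throughout, and 2 effectors per comparison with the largest called differences. Further members were named after their values were seen. Ribosomal sets were split at 50000 FPKM. Alternatives were other filters, a pseudocount of 0.1, 2 rescalings, the set as covariate, 1 set only, fits of 2 cell types, a replicate block, a threshold of 0.01 and leaving out each sample. Annotation was GENCODE M21 (GRCm38), which held 68 of the 70 members, and promoters were from RefSeq (GRCm38.p6).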

Additional observations from a re-analysis of the deposited data

Results flagged for a closer look

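In 86 groups of samples of the named genes, 15 held a sample whose gap to the nearest other sample was large against the range of the group on the log2(FPKM + 1) scale. Chance alone gives about 1 in 20 such groups, or 4.3.

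In delta cells, delta 2 was low in Efna5 (0.615 FPKM against 7.72 to 18.9 in the others) and in Plxnb2 (3.94 against 23.5 to 42.8). Delta 1 was low in Plxnb1 (2.83 against 6.31 to 9.53). Delta 6 was high in Ntn4 (0.558 against 0.0887 to 0.191) and delta 4 in Sema7a (0.295 against 0 to 0.0824).

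Among beta cells, beta 3 was high in Plxna3 (15 FPKM against 0.573 to 0.757) and in Plxnd1 (0.126 against 0 to 0.0136), and low in Sema4b (1.36 against 2.68 to 2.97). Beta 2 was high in Efnb1 (1.51 against 0.128 to 0.283) and low in Plxnb1 (0.645 against 0.995 to 1.08). Beta 4 was high in Unc5c (1.53 against 0.494 to 0.556). Beta 1 had 0.0334 FPKM of Plxnc1, which was listed at 0 in the other 3.

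Of the alpha cells, alpha 5 was high in Robo1 (1.2 FPKM against 0 to 0.18), alpha 4 in Sema3a (1.35 against 0 to 0.0228) and alpha 1 in Slit2 (0.0199 against 0 to 0.00245).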

How the results depend on the processing

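No called difference of a guidance gene changed sign in 861 values under an alternative, and 103 of these were no longer called. The effector differences were not followed through the alternatives. Counts of called members moved as follows. For beta against alpha cells (7 as reported) a filter at 5 FPKM gave 3 and the low-ribosomal samples alone 12, where 9.05% and 9.78% of all genes were called, against 7.66%. For delta against alpha cells (9) no filter gave 16, with 65 members tested and 4.71% of all genes called against 6.81%, and an adjusted p of 0.01 gave 5. For delta against beta cells (19) the 5 FPKM filter, which left 13 members, gave 7 (14.4% of all genes, against 14.7%) and an adjusted p of 0.01 gave 10. Across the 3 types (19) the 5 FPKM filter gave 7 (15.8%, against 16.0%). For the counts at 0.01 the share of all genes was not taken. Leaving out each sample in turn gave 6 to 8 for beta against alpha, 6 to 13 for delta against alpha, 12 to 20 for delta against beta cells and 14 to 20 across types, while the share of all genes called ran from 4.53% to 11.9%, 5.51% to 7.75%, 9.89% to 18.5% and 11.8% to 20.1%. The 12 in delta against beta cells came without beta 4. The causes of the other shifts were not tested.

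Same-numbered samples deviated together only in part (correlations from -0.15 to 0.28), so the numbers were not taken as pairs. With replicate numbers as a block over all samples the counts were 7, 8, 12 and 15 in the same order. The shares of all genes called were 8.52%, 5.77%, 13.9% and 15.3%. This block lost the delta against beta calls of Sema4b, Sema4c, Sema4f, Sema4g, Sema6a, Slit2 and Unc5b, and the delta against alpha call of Plxnb1. With alpha and beta samples 1 to 4 paired by number as a block, 0 members were called by limma for beta against alpha cells, as were 0 of all genes, while 11 members and 2751 genes had an unadjusted p under 0.05. The 7 members had adjusted p values of 0.0734 to 0.143 there, and the calls of Efnb3, Ntn4, Robo1 and Sema3e were lost in that fit alone, which the delta comparisons did not have. Low FPKM values have an unknown depth behind them, and the RNA was amplified, which limits what small values can show.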
